A study of Mus musculus with 36 samples.

Results

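Neurofilaments are the intermediate filaments of neurons. Their subunits are encoded by *Nefl* (light chain), *Nefm* (medium chain), *Nefh* (heavy chain) and *Ina* (alpha-internexin), and *Prph* encodes peripherin, a related filament protein best known from peripheral neurons. These 5 genes were taken by symbol from a count table of 55487 genes and followed through all 36 libraries of a bulk RNA-seq study of the mouse visual pathway. *Prph* is a different gene from *Prph2*, which encodes a photoreceptor protein.

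RNA was sequenced from retina, unmyelinated optic nerve (UON, the segment next to the eye) and the first myelinated segment behind it (MON), with 12 libraries per tissue. All animals were C57BL/6 mice of 2 to 4 months with no transgene or deletion. Naive mice were compared with mice whose optic nerve had been crushed on one side 3 days (3 D) or 2 weeks (2 W) earlier. The glaucoma model was injection of microbeads into the anterior chamber of one eye, which raises eye pressure, with tissue taken at 3 D, 2 W and 6 weeks (6 W). Each group of each tissue was 1 pool of 2 female mice and 1 pool of 2 male mice, so n = 2 pools throughout, p-values measure the spread between these pools, and a difference between pools cannot be told apart from sex. The naive animals were untouched on both sides, and no sham-operated or bead-free injected group was analysed here.

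Neurofilament subunits copolymerise side by side in the axon, where the light chain forms the core and the long tails of the medium and heavy chains project outward and are heavily phosphorylated. Retinal ganglion cells, whose axons form the optic nerve, are the classical neurofilament-rich neurons of the retina, and horizontal cells also contain neurofilaments. Neuronal cell bodies lie in the retina and not in the optic nerve, which consists of ganglion cell axons, astrocytes, oligodendrocytes (mainly in MON), microglia, vessels and connective tissue.

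On the build of the files, GRCm38, *Nefl* lies at chr14:68083863-68089095 on the plus strand and *Nefm* at chr14:68082590-68124846 on the minus strand. *Nefh* lies at chr11:4938754-4948064 on the minus strand, *Ina* at chr19:47014698-47025327 on the plus strand and *Prph* at chr15:99055174-99058978 on the plus strand. The annotated spans of *Nefl* and *Nefm* overlap because the rare transcript Nefm-202 runs on to an exon that covers 1108 bases of the first exon of *Nefl* on the opposite strand. The main transcript Nefm-201 ends 30187 bases away from *Nefl* and took 99.3% of the *Nefm* transcript counts over all libraries, against 0.682% for Nefm-202. No strand setting is named for the alignment, which was run with default parameters, or for the counting, so reads in the shared exon cannot be assigned to either gene with certainty.

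The heavy chain differs from the other members in its tail, which is encoded in the last of 4 exons and repeats the codons for lysine, serine and proline, the site that neuronal kinases phosphorylate. The codon triplet for Lys-Ser-Pro occurred 51 times in the 1090 codons of *Nefh*, 4 times in the 848 codons of *Nefm* and 0 times in *Nefl*, *Ina* and *Prph*. A stretch of the tail is shown because it sets *Nefh* apart from the other members, and because repeated sequence can blur counting. It is the coding strand of codons 517 to 566 (chr11:4940920-4941069 of GRCm38, minus strand), with the 8 triplets in capitals.
Nefh: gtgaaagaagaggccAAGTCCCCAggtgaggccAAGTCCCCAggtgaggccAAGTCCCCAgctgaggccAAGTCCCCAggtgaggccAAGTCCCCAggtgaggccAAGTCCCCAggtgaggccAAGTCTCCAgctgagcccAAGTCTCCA
Of the 50-base words in the whole *Nefh* transcript, untranslated ends included, 3.8% occurred more than once, against 0% in the other members, so little of the transcript could place a read in more than 1 position of the gene.

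Promoter sequence was matched for *Ina* and *Prph* only, the members outside the light, medium and heavy chains. No promoter of those chains is shown, and a link between these sequences and the changes below was not tested. Each run is the 250 bases before the RefSeq start on GRCm38.p6, plus strand, at chr19:47014431-47014680 for *Ina* and chr15:99054924-99055173 for *Prph*. Capitals mark the TATA box letters TATAAA and the GC box letters GGGCGG, searched on both strands.
Ina: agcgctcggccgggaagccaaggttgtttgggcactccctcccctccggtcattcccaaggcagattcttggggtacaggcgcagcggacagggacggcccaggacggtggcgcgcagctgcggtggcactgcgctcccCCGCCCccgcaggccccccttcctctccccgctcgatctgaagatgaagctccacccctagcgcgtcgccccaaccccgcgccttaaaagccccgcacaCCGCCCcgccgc
Prph: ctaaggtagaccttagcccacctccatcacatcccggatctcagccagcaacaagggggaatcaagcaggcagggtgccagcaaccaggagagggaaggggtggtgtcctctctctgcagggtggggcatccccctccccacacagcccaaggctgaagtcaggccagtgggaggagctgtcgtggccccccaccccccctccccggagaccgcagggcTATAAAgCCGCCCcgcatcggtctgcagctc
The *Prph* run holds TATAAA from 31 to 26 bases before the start, and these letters were found in 12.4% of 32851 mouse promoter windows of that length. GGGCGG, found in 32.7% of the windows, occurs 2 times in *Ina* and 1 time in *Prph*. A match of letters is a description of the sequence and no evidence that a factor binds there.

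The libraries held 16158723 to 78054205 estimated counts. Levels between libraries are given as CPM (counts scaled to a common library size, with TMM factors over the 36 libraries) and levels between genes as the authors' FPKM, which divide by transcript length. Over the nerve libraries, summed photoreceptor markers reached at most 0.541% of their naive retina level in UON and 0.25% in MON, whereas amacrine and bipolar cell markers reached 10.3% and 23.6%, horizontal cell markers 20.6% in UON, and ganglion cell markers 19.0% and 14.6%. The 6 oligodendrocyte markers were all called higher in naive MON than in naive UON. *Pou4f2*, a transcription factor that defines ganglion cell bodies, was at 4.80 to 4.85 CPM in naive retina, 0 to 0.212 CPM in naive UON and 0 to 0.143 CPM in naive MON, and stayed at or below 0.819 CPM in all 24 nerve libraries. Calls required a log2 fold change beyond 1 together with an adjusted p below 0.05 in edgeR's quasi-likelihood test (Benjamini-Hochberg over all genes tested). In these bulk samples, fewer cells or axons and less RNA in each of them cannot be told apart.

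First, the naive tissues were compared. The members were not expressed in one fixed ratio along the pathway: *Nefl* led by far in the retina, whereas in UON the heavy chain stood level with it. In the retina, *Nefl* was at 202.5 FPKM in the female pool and 192 in the male pool, followed by *Nefm* at 38.6 and 37.8, *Ina* at 31.5 and 32.0, *Nefh* at 15.8 and 16.6 and *Prph* at 5.51 and 4.66. The pools of neighbouring members in this order did not overlap.

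In naive UON, *Nefh* was at 24.6 and 40.6 FPKM and *Nefl* at 26.1 and 33.9, so their order was not separable from the spread between pools. *Ina* at 3.07 and 4.17, *Nefm* at 2.72 and 3.75 and *Prph* at 0.583 and 2.22 FPKM followed at a distance. *Ina* and *Nefm* overlapped.

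In naive MON, *Nefl* again led at 25.7 and 16.4 FPKM, ahead of *Ina* at 4.64 and 5.56, *Nefh* at 3.63 and 3.86, *Nefm* at 1.19 and 1.62 and *Prph* at 1.11 and 0.594. Neighbours in this order did not overlap in MON. Per 100 FPKM of *Nefl*, *Nefh* thus stood at 94.5 to 119.8 in UON, 14.1 to 23.5 in MON and 7.80 to 8.64 in retina.

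**Figure D1:**
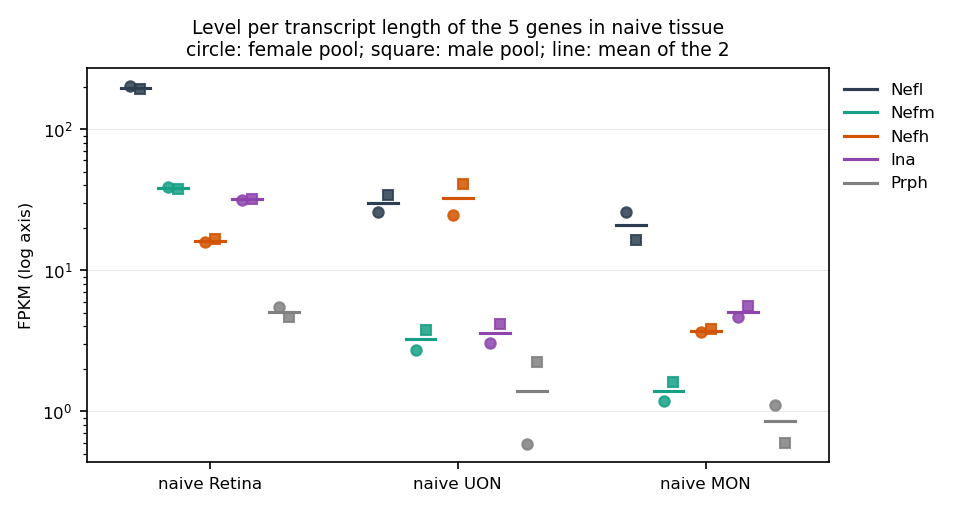
FPKM (log axis) of the 5 genes in naive retina, UON and MON, with 1 point per pool (circle female, square male) and a line at the mean of the 2 pools. *Nefl* leads in retina with a mean of 197 FPKM, whereas in UON *Nefh* (mean 32.6) and *Nefl* (mean 30.0) overlap.

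Between the 2 nerve segments, *Nefh* was at 120.4 CPM (female pool) and 211 CPM (male pool) in naive UON and at 20.3 and 18.6 CPM in naive MON. The UON libraries lay far above the MON libraries, with a log2 fold change of 3.02 (SE 0.28, adjusted p = 0.00176, edgeR). *Nefm*, at 11.1 and 16.3 CPM in UON and 5.58 and 6.54 in MON, was higher by 1.14 on the log2 scale (SE 0.24, adjusted p = 0.0268), also without overlap. *Nefl*, *Ina* and *Prph* did not pass the test, with log2 fold changes of 0.46, −0.57 and 0.50, and of these 3 the pools overlapped for *Nefl* and *Prph*. *Nefh* and *Nefm* were thus the 2 members called, both higher in UON, where 9.63% of all genes were called between UON and MON and 4.83% were called higher. The *Nefm* call was lost without either naive MON pool or without the male naive UON pool (adjusted p up to 0.222) and in a fit of all 36 libraries (0.0813), whereas the *Nefh* call held in 6 of 6 fits that left out a library.

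Both nerve segments were then set against the retina. *Nefl*, *Nefm* and *Ina* were lower in the nerve. *Nefl* was at 684 and 640.1 CPM in retina, 108 and 149 in UON (log2 fold change −2.32, SE 0.32, adjusted p = 0.00133) and 122 and 66.8 in MON (−2.77, SE 0.33, adjusted p = 0.000706, edgeR). *Nefm* had 129 and 124 CPM in retina, and its log2 fold changes were −3.19 in UON and −4.33 in MON (adjusted p = 9.14e-05 and 4.73e-05, edgeR). *Ina* had 102 CPM in both retina pools, with −2.76 in UON and −2.19 in MON (adjusted p = 0.000145 and 0.000429, edgeR).

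*Nefh* went the other way in UON. It was at 63.0 and 65.4 CPM in retina, below both UON pools, with a log2 fold change of 1.37 (SE 0.26, adjusted p = 0.00599, edgeR), and above both MON pools (−1.65, SE 0.26, adjusted p = 0.00302). The UON call was lost without the male naive UON pool, which had the higher *Nefh* value (adjusted p = 0.0667), under total-count scaling (log2 fold change 0.97), and in a fit of all 36 libraries (adjusted p = 0.109), which also lost the MON call (0.0705). Of the 5 members, 4 were called in UON against retina and 4 in MON against retina, where 31.7% and 27.6% of all genes were called. *Nefh* was the 1 member called higher in UON than in retina, as were 18.2% of all genes. *Prph*, at 7.47 and 6.62 CPM in retina, 1.18 and 4.05 in UON and 1.94 and 1.35 in MON, passed neither edgeR test (adjusted p = 0.144 and 0.0698), although both nerve segments lay below the retina. DESeq2 called *Prph* lower in MON than in retina (log2 fold change −2.08, adjusted p = 0.0143, 18.8% of the genes it fitted).

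As a share of the naive retina mean in CPM, the naive nerve libraries held 10.1 to 22.5% of *Nefl*, 4.42 to 12.9% of *Nefm* and 11.9 to 21.3% of *Ina*. For *Nefh* the share was 187 to 329% in UON and 29.0 to 31.6% in MON. The marker shares given above are maxima over all libraries of a segment, injured ones included, so they are no matched comparison. The shares of *Nefl*, *Nefm* and *Ina* lay over those of the photoreceptor markers. In UON the highest *Nefl* share, 22.5%, exceeded the maxima of the amacrine and bipolar (10.3%), horizontal (20.6%) and ganglion cell markers (19.0%). The *Nefm* and *Ina* shares in UON lay below the horizontal and ganglion cell maxima, which include injured libraries. In naive libraries alone, the ganglion cell markers summed to 50.33 to 60.11 CPM in UON and 459.2 to 509.9 in retina. The horizontal cell markers summed to 11.44 to 18.46 CPM in naive UON and 110.1 to 114.0 in naive retina. As shares of naive retina, both marker lists overlapped the *Nefm* and *Ina* shares in UON. In MON *Nefl*, *Nefm* and *Ina* lay below the amacrine and bipolar maximum of 23.6%. *Ina* in MON, at 20.7 to 21.3%, and the higher *Nefl* share, 18.4%, exceeded the horizontal and ganglion cell maxima (14.6% for ganglion cells). *Nefm* did not. The part of retinal tissue in the nerve values was not tested.

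Genes that carry, anchor or modify neurofilaments were read beside the members. Among 25 such partners, 1 was called higher and 6 lower in UON than in MON, with a median log2 fold change of −0.17 against −0.06 over all genes. The RNA-binding exchange factor *Arhgef28*, known to bind the *Nefl* transcript, was lower in UON with a log2 fold change of −3.03 (adjusted p = 0.00152, edgeR), and *Mapt*, which encodes the microtubule protein tau, had −2.94 (adjusted p = 0.00139). *Trim2*, a ubiquitin ligase for the light chain, had −1.55 (adjusted p = 0.0125).

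Of 10 other neuronal RNAs, 1 was called higher and 4 lower in UON than MON, among them *Tubb3* (neuronal tubulin, −2.66), *Stmn3* (−2.36) and *Syn1* (−2.22). Of the 10 ganglion cell markers, 0 were called between UON and MON by edgeR (3 at an unadjusted p below 0.05), and DESeq2 called 1 higher and 1 lower. Among 13 other intermediate filament genes, 3 were called higher and 2 lower, with *Nes* (nestin, 2.63) the furthest above and *Krt18* (a keratin, −3.19) the furthest below.

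*Kif5a*, a kinesin motor that moves neurofilaments along axons, was the partner furthest above the retina in both segments. It was at 138 to 144 CPM in naive retina, 14307 to 18484 in naive UON and 6636 to 12600.0 in naive MON, with log2 fold changes of 6.91 and 6.12 (adjusted p = 5.74e-05 and 9.98e-05, edgeR).

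After crush, the retina was described first. *Nefl* was at 684 and 640.1 CPM in the naive pools, 349 and 389.9 at 3 D and 94.3 and 72.9 at 2 W. *Nefm* was at 129 and 124, then 85.2 and 88.9, then 20.6 and 16.7 CPM. *Nefh* was at 63.0 and 65.4, then 30.7 and 20.8, then 14.3 and 10.6 CPM. For these 3 chains both pools lay below both pools of the earlier time at each step.

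*Ina* was at 102 CPM in both naive retinas, 70.4 and 63.2 at 3 D and 45.5 and 45.0 at 2 W, so it too stepped down without overlap but kept a larger share. *Prph* was at 7.47 and 6.62 CPM, then 3.41 and 1.98, then 2.87 and 2.15, and its crush times overlapped.

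At 3 D after crush, 0 of 5 members were called by edgeR in the retina, where 0.0221% of all genes were, although 5 of 5 had an unadjusted p below 0.05 and all 5 fold changes were negative (−0.54 to −1.43). DESeq2, an alternative, called *Nefh* (log2 fold change −1.35, adjusted p = 1.73e-07), with 0.338% of the genes it fitted. At 2 W, 4 of 5 members were called, all lower, where 0.313% of all genes were called and 0.238% were called lower. *Nefl* fell by 3.03 on the log2 scale (SE 0.14, adjusted p = 0.00164, edgeR), which left 11.01 to 14.3% of the naive mean. *Nefm* fell by 2.81 (SE 0.13, adjusted p = 0.00164), which left 13.2 to 16.3%. *Nefh* fell by 2.44 (SE 0.19, adjusted p = 0.0103), which left 16.5 to 22.2%. *Ina* fell by 1.21 (SE 0.12, adjusted p = 0.0221), which left 44.1 to 44.6%, and this call was lost without the female 2 W pool (adjusted p = 0.0531). *Prph* had a log2 fold change of −1.55 (SE 0.31, adjusted p = 0.155), and DESeq2 called all 5 members, *Prph* with an adjusted p of 0.0172, where it called 0.867% of the genes it fitted. A fit of all 36 libraries, which shares 1 estimate of spread between tissues, kept only the *Nefm* call (adjusted p = 0.0103), with adjusted p of 0.0811 for *Nefl*, 0.515 for *Nefh* and 0.817 for *Ina*.

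Between 3 D and 2 W after crush, *Nefl* and *Nefm* fell further in the retina, with log2 fold changes of −2.199 and −2.27 (adjusted p = 0.0065 and 0.00564, edgeR), 2 of 5 members where 0.0485% of all genes were called. Both calls were lost in the fit of all 36 libraries (adjusted p = 0.971 and 0.184). DESeq2 called 3, *Nefl*, *Nefm* and *Nefh* (*Nefh* −1.08, adjusted p = 0.000148), with 0.404% of the genes it fitted. The ratio of the medium to the light chain stayed narrow while both fell: per 100 FPKM of *Nefl*, *Nefm* was 19.1 to 19.7 in naive retina, 23.1 to 24.6 at 3 D and 22.1 to 23.1 at 2 W after crush. *Nefh* per 100 *Nefl* was 7.80 to 8.64, then 4.51 to 7.42, then 12.3 to 12.8. *Ina* per 100 *Nefl* was 15.6 to 16.7 in naive retina, 16.9 to 21.0 at 3 D and 50.3 to 64.5 at 2 W. These ratios are descriptions with no test.

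**Figure D2:**
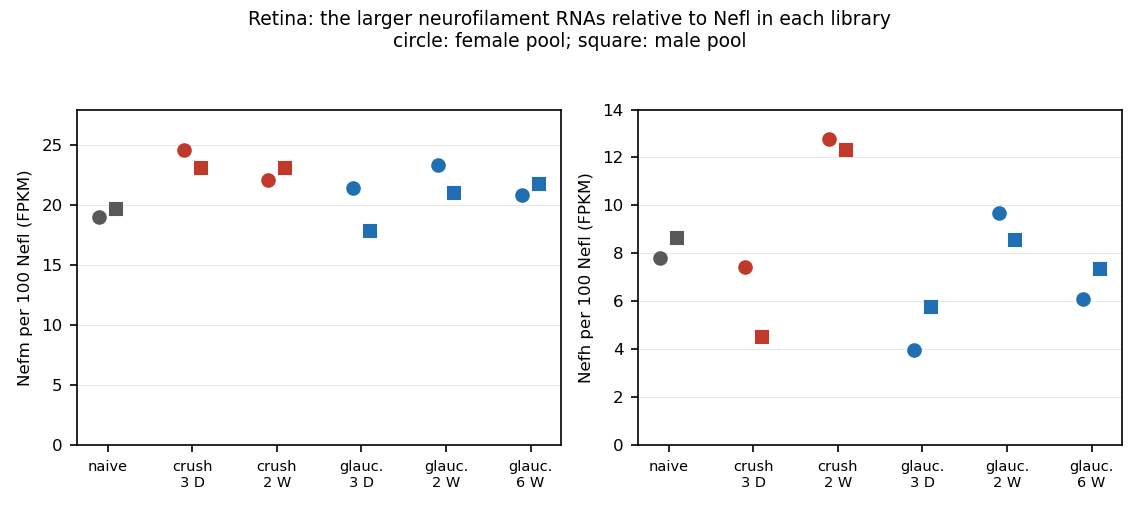
*Nefm* (left) and *Nefh* (right) per 100 *Nefl*, as ratios of FPKM, in each retina library by group (circle female pool, square male pool). *Nefm* spans 17.8 to 24.6 over the 12 libraries, whereas *Nefh* is lowest in the female pool at 3 D after microbeads (3.98) and highest at 2 W after crush (12.3 and 12.8).

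The ganglion cell markers moved with the members in the retina. The CPM of the 10 markers summed to 459 to 509.9 in naive retina, 300.1 to 304 at 3 D and 111 to 114 at 2 W after crush. At 2 W 6 of 10 were called lower, with a median log2 fold change of −3.48 against 0.01 over all genes, among them *Rbpms2* (−4.76) and *Pou4f1* (−3.92). Of 10 other neuronal RNAs 3 were called lower (median −0.94, *Tubb3* −1.23), and of 25 neurofilament partners 1, the microtubule protein gene *Map1a* (−1.38, list median −0.14). Of the horizontal cell markers (4), photoreceptor markers (10) and amacrine and bipolar cell markers (11), 0 were called by edgeR or DESeq2 at 2 W, with 1, 4 and 0 at an unadjusted p below 0.05 and median log2 fold changes of −0.28, 0.07 and 0.04. The horizontal cell sum was 110 to 114 CPM in naive retina and 83.0 to 86.6 at 2 W, without overlap, although none of these markers was called. The photoreceptor sum and the amacrine and bipolar sum at 2 W overlapped naive. The part of cell number in the members' change was not tested.

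In the retina, the genes whose profile over the 12 libraries lay nearest to a member were found by the root mean square difference of centred log2 CPM among 9957 genes. Nearest to *Nefl* were *Nell2* (0.197), *Rgs4* (0.227) and *Sncg* (0.229), and *Nefm* itself lay at 0.13 from *Nefl*. *Nell2* (0.205) was also nearest to *Nefm*, *Chrna6* (0.259) to *Nefh* and *Cacnb3* (0.116) to *Ina*, followed by *Tubb3* (0.123). The spread of the member over the same libraries (SD of log2 CPM) was 1.05 for *Nefl*, 0.994 for *Nefm*, 0.908 for *Nefh* and 0.42 for *Ina*. The genes were measured in the same 12 libraries, so likeness is a description, and *Prph* was too low for this measure.

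In the crushed nerve, the 2 W libraries held little of these RNAs. In MON, *Nefl* was at 122 and 66.8 CPM in the naive pools, 78.4 and 31.1 at 3 D, and 0.534 and 0.118 at 2 W, the last from 9 and 4 counts. *Nefh* was at 20.3 and 18.6, then 4.73 and 3.57, then 0 and 0.236 CPM, from 0 and 8 counts. *Ina* was at 21.1 and 21.8, then 9.02 and 5.76, then 0.95 and 1.27 CPM.

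The 2 W MON libraries lay below all naive and 3 D MON libraries for these 3 members. The female 2 W pool was also the shallowest MON library. Its *Nefh* count of 0 would allow up to 3 counts, or 0.178 CPM, counting error only, if each count were a separate read pair. Each count stood for 75.0 bases of aligned sequence in *Nefl*, *Nefh* and *Ina*. A count is thus a unit of aligned length and not a whole read pair, and a read pair can give several. The true limit is therefore higher than 0.178 CPM and was not computed.

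At 3 D after crush, 0 of 5 members were called in MON by edgeR, where 4.26% of all genes were. 3 of them had an unadjusted p below 0.05, and DESeq2 called 2, *Nefh* and *Ina* (6.12% of the genes it fitted). The edgeR values were −2.12 for *Nefh* (adjusted p = 0.126), −1.45 for *Ina* (0.114), −0.79 for *Nefl* and 0.45 for *Nefm*. At 2 W, 3 of 5 members were called, all lower, where 2.72% of all genes were called and 0.595% were called lower. The log2 fold changes were −8.29 for *Nefl* (SE 0.47, adjusted p = 0.00248, edgeR), −6.996 for *Nefh* (SE 0.89, adjusted p = 0.018) and −4.16 for *Ina* (SE 0.49, adjusted p = 0.0153). This left 0.125 to 0.566% of the naive mean of *Nefl*, 0 to 1.21% of *Nefh* and 4.43 to 5.90% of *Ina*. The *Nefh* and *Ina* calls were lost without either naive MON pool (adjusted p up to 0.123 and 0.111). From 3 D to 2 W *Nefl* fell by 7.50 in MON (SE 0.46, adjusted p = 0.00717, edgeR), 1 of 5 members where 0.075% of all genes were called. DESeq2 called 4, *Nefl*, *Nefm*, *Nefh* and *Ina*, with 2.72% of the genes it fitted.

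*Nefm* in MON was at 5.58 and 6.54 CPM in the naive pools, 8.36 and 6.53 at 3 D and 0.297 and 1.15 at 2 W. Its log2 fold change at 2 W was −3.02 (SE 0.68, adjusted p = 0.0673, edgeR), and the naive pools lay above both. DESeq2 called *Nefm* lower at 2 W (−3.07, adjusted p = 0.000565), beside *Nefl*, *Nefh* and *Ina*, with 4.43% of the genes it fitted. All 5 *Nefm* counts of the female 2 W pool came from Nefm-202, the transcript that overlaps *Nefl*, and all 39 of the male pool from Nefm-201. *Prph* was at 1.94 and 1.35 CPM, then 0 and 0.99, then 0 and 0.795, with no call.

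In UON, fold changes at 2 W after crush ran to −9.16 on the log2 scale, but 0 of 5 members were called by edgeR, where 0.0281% of all genes were. *Nefh* was at 120.4 and 211 CPM in the naive pools, 126 and 52.4 at 3 D, and 0.666 and 0.0748 at 2 W. *Nefl* was at 108 and 149, then 138 and 104, then 8.54 and 3.35 CPM. *Ina* was at 12.2 and 17.6, then 5.53 and 11.1, then 0.9997 and 0.58 CPM.

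For these 3 members the naive and 2 W pools did not overlap, whereas the naive and 3 D pools overlapped for *Nefh* and *Nefl*. The log2 fold changes at 2 W were −9.16 for *Nefh* (SE 0.98, adjusted p = 0.0915, edgeR), −4.55 for *Nefl* (SE 0.51, adjusted p = 0.0996), −4.17 for *Ina* (adjusted p = 0.21) and −2.24 for *Nefm* (adjusted p = 0.48). Each of these 4 members had an unadjusted p below 0.05, and DESeq2 called all 4, where it called 1.37% of the genes it fitted. Without 1 library, edgeR called *Nefh* in 6 of 6 fits and *Nefl* in 5 of 6. From 3 D to 2 W, 0 of 5 were called by edgeR (4 at an unadjusted p below 0.05, 3 by DESeq2, 0.00468% of all genes called by edgeR and 0.954% by DESeq2), with *Nefh* at −8.02 (adjusted p = 0.0754). At 3 D against naive, 0 of 5 members were called by edgeR or DESeq2, with 0 at an unadjusted p below 0.05. EdgeR called 0% of all genes there and DESeq2 0.56% of the genes it fitted.

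The pair of UON pools at 2 W after crush also differed in cell type markers. In the female and the male pool in turn, the oligodendrocyte sum was 7663 and 1370.0 CPM (6135 to 7843 in naive UON), the fibroblast sum 1813 and 4050.0 (2065 to 2362 in naive) and the skeletal muscle sum 3.603 and 29.6 (0.987 to 9.91 in naive), whereas the astrocyte sum was 19760.0 to 21790.0 (22170.0 to 25600.0 in naive). Their part in the members' values was not tested.

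*Prph* did not follow the others in UON. It was at 1.18 and 4.05 CPM in the naive pools, 5.79 and 6.34 at 3 D and 1.77 and 5.57 at 2 W, with log2 fold changes of 1.56 and 0.52 that passed no test. *Nefm*, at 11.1 and 16.3, then 14.5 and 7.11, then 2.37 and 3.37 CPM, kept 17.3 to 24.6% of its naive mean in UON at 2 W, against 0.0451 to 0.402% for *Nefh*, 2.61 to 6.65% for *Nefl* and 3.89 to 6.71% for *Ina*.

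**Figure D3:**
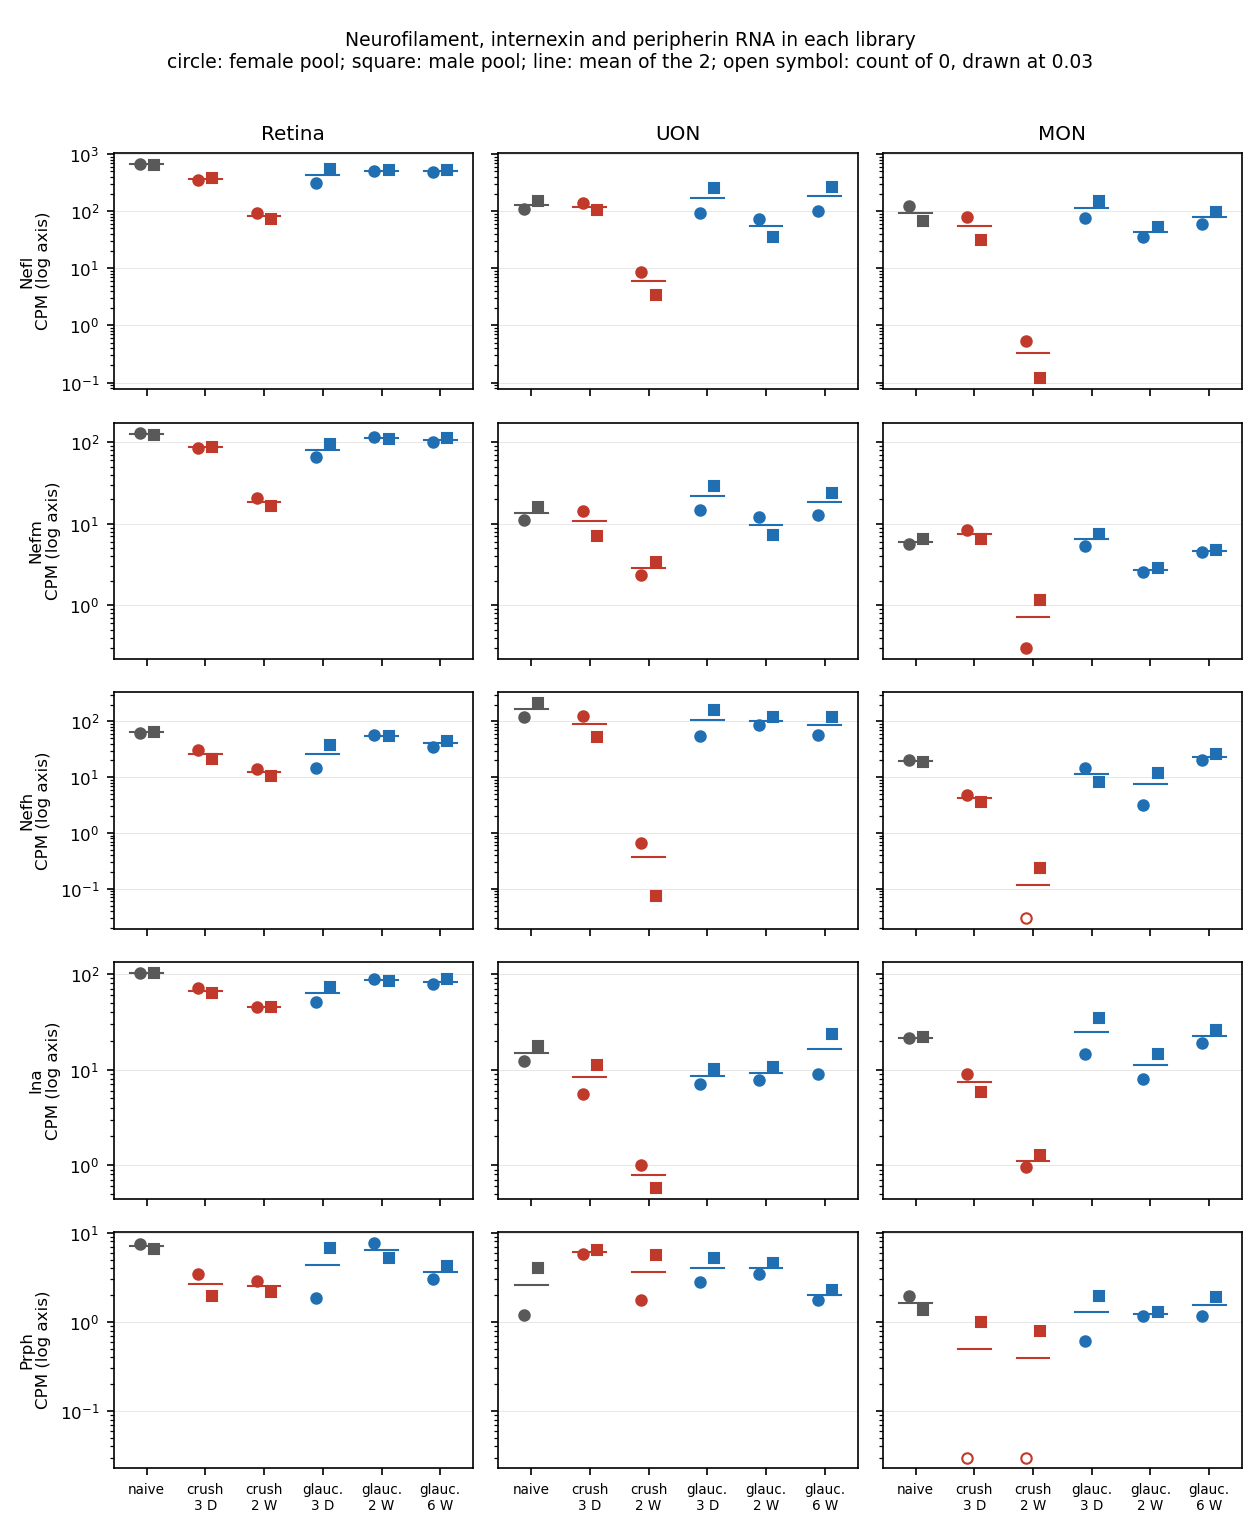
CPM (log axis) of each gene (rows) in each tissue (columns), with 1 symbol per library (circle female pool, square male pool), a line at the mean of the 2 and open symbols at 0.03 for a count of 0. In both nerve segments *Nefl*, *Nefh* and *Ina* are lowest at 2 W after crush, with *Nefl* at 0.534 and 0.118 CPM in MON, whereas *Prph* in UON is not.

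The motor *Kif5a* was called lower in both nerve segments at 2 W after crush. It was at 14307 to 18484 CPM in naive UON and 47.7 to 106 at 2 W (log2 fold change −7.90, adjusted p = 0.0236, edgeR), the 1 partner called of 24 tested. In MON it was at 6636 to 12600.0 CPM and then 93.3 to 108 (−6.36, adjusted p = 0.0103), 1 of 4 partners called lower of 24, beside *Kif5c* (−2.04) and the kinesin light chain *Klc1* (−1.77). The medians of the partner list were −0.30 in UON and −0.44 in MON, against −0.09 and 0.05 over all genes.

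Other RNAs in MON at 2 W after crush were also read. Of the 6 ganglion cell markers tested there, 2 were called lower (*Nrn1* −5.13, *Rbpms2* −2.39), and of 10 other neuronal RNAs 1 (*Snap25*, a synaptic vesicle fusion protein, −3.90). *Rbpms*, also on the ganglion cell list, was not among those called. Its response to crush at 2 W was more negative in retina than in MON. The retina minus MON value on the log2 scale was −3.53 (adjusted p = 0.0392, edgeR). Of 6 oligodendrocyte markers 1 was called lower (*Mog* −1.67), and their summed CPM was 42940.0 to 63150.0 in naive MON and 15380.0 to 19520.0 at 2 W. Of 6 microglia markers 1 was called higher (*Aif1* 2.26), and their sum was 833 to 878 CPM in naive MON and 1848 to 3217 at 2 W. Neither sum overlapped naive. Of the 11 other intermediate filament genes tested, 0 were called at 2 W by edgeR or DESeq2 (4 at an unadjusted p below 0.05, median 0.43), whereas 3 were called higher at 3 D (*Lmnb1* 2.34, *Nes* 1.55 and *Lmna* 1.33). The share of glia and of axons in these libraries, and its part in the members' values, was not tested.

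Over the 24 nerve libraries and 9840 genes, the nearest profile to *Nefl* was that of *Nrsn1* (root mean square difference 0.812), then *Unc13c* (1.02) and *Kif5a* (1.19), and nearest to *Ina* was *Snap25* (0.563), then *Calb2* (0.634). The spread of the members over these libraries (SD of log2 CPM) was 2.61 for *Nefl* and 1.57 for *Ina*. *Nefm*, *Nefh* and *Prph* did not meet the limits for this measure in the nerve.

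The response to crush was compared between tissues by an interaction test. At 2 W, 3 of 5 members differed between retina and MON, where 0.622% of all genes did: the log2 fold change was less negative in retina by 5.28 for *Nefl* (SE 0.65, adjusted p = 0.0125, edgeR), 4.52 for *Nefh* (SE 0.69, adjusted p = 0.0284) and 3.01 for *Ina* (SE 0.36, adjusted p = 0.0108). For *Nefm* the difference was 0.11 (SE 0.50) and for *Prph* 0.64 (SE 1.73). The *Nefh* call was lost in 5 of 12 fits that left out a library (adjusted p up to 0.0825) and in the fit of all 36 (0.102). Libraries of different tissues from one pool of mice were treated as independent in this test, and with a block for the pool, added after seeing the data, the same 3 members were called (adjusted p = 0.0226 for *Nefl*, 0.04 for *Nefh* and 0.0152 for *Ina*, with 0.512% of all genes called). Between retina and UON, 0 of 5 were called by edgeR (3 at an unadjusted p below 0.05, 0.0689% of all genes), with *Nefh* nearest at 6.56 (adjusted p = 0.0551), and 2 by DESeq2 (1.0% of the genes it fitted). With the block for the pool, edgeR called *Nefh* there (6.64, SE 0.75, adjusted p = 0.0312, 0.0421% of all genes). Between UON and MON 0 of 5 were called by edgeR (1 at an unadjusted p below 0.05, 0% of all genes) and 1, *Nefl*, by DESeq2 (1.44% of the genes it fitted). At 3 D, 0 of 5 were called by edgeR or DESeq2 in each pair of tissues, with 1 at an unadjusted p below 0.05 in each. EdgeR called 0.0115% of all genes between retina and UON, 0.882% between retina and MON and 0.012% between UON and MON. In the same order, DESeq2 called 0.321%, 3.36% and 0.677% of the genes it fitted. For the response to microbeads, 0 of 45 tests were called by edgeR or DESeq2 (3 pairs of tissues at 3 times), with 4 at an unadjusted p below 0.05. EdgeR called 0% of all genes in these contrasts and DESeq2 0.0711 to 0.545% of the genes it fitted. These contrasts share the naive libraries of each tissue.

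**Figure D4:**
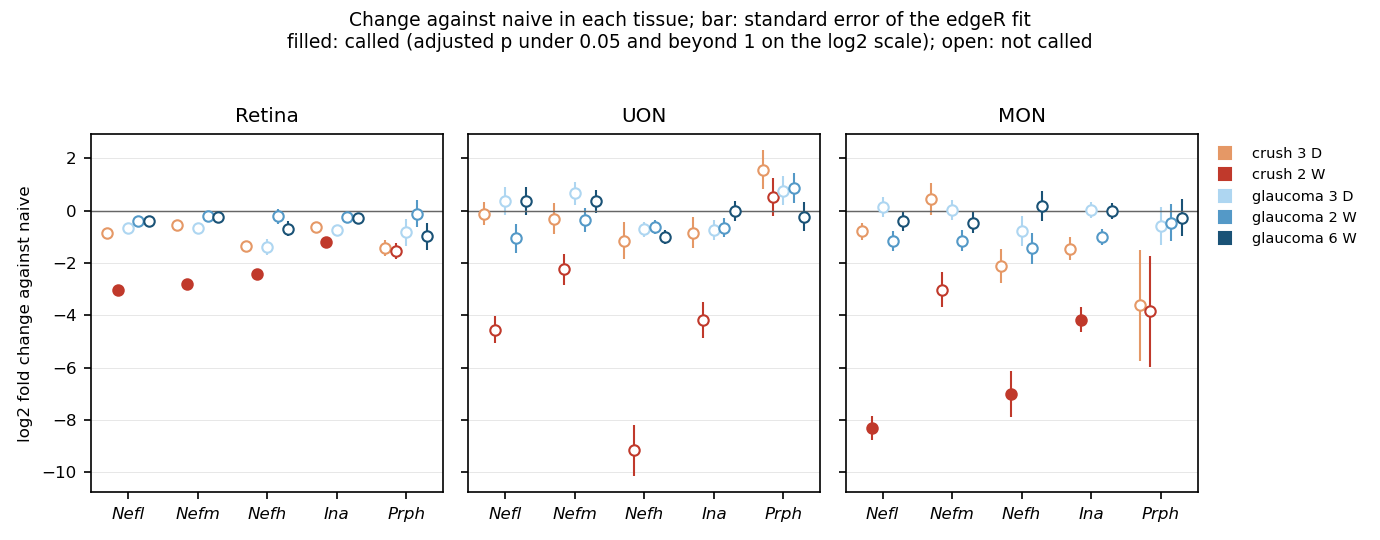
Log2 fold change against naive (edgeR, bar = standard error) of the 5 genes in each tissue at each time after crush or microbeads, filled where called and open where not. Filled points occur at 2 W after crush only, 4 in retina and 3 in MON, whereas the UON values of −9.16 (*Nefh*) and −4.55 (*Nefl*) are open, and no glaucoma point is filled.

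In the microbead model, 0 of 15 member tests against naive were called by edgeR in each tissue (5 members at 3 times), where the share of all genes called was 0.00429% at 3 D, 0% at 2 W and 0.00858% at 6 W in retina and 0% in UON and MON. Between 3 D and 6 W after microbeads 0 of 5 members were called in each tissue by edgeR or DESeq2. In retina 3 tests had an unadjusted p below 0.05, and edgeR called 0.0129% of all genes. DESeq2 called 0.235%, 0.337% and 0.457% of the genes it fitted in retina, UON and MON. The unadjusted p was below 0.05 in 5 tests of the retina, 2 of UON and 4 of MON, and the lowest adjusted p was 0.484, 1.0 and 0.432. DESeq2 called 1 member test, *Nefh* in the retina at 3 D (−1.39, adjusted p = 0.00138, 0.409% of the genes it fitted).

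All 15 retina fold changes were negative, from −0.12 to −1.40. *Nefl* in retina was at 313 and 549 CPM at 3 D, 502 and 529.5 at 2 W and 490.4 and 521 at 6 W. *Nefh* was at 14.7 and 37.3, then 57.6 and 53.6, then 35.3 and 45.2 CPM. At each time both pools lay below both naive pools.

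The pools stood apart at 3 D after microbeads. The female retina was lower than the male retina for all members, with *Nefm* at 66.2 and 96.8 CPM, *Ina* at 51.3 and 73.6 and *Prph* at 1.88 and 6.72. The summed ganglion cell markers moved the same way, at 236 CPM in that female pool and 439 in the male pool, and their part in the difference was not tested. At 2 W and 6 W *Nefm* was at 116 and 109.7, then 101 and 112 CPM, and *Ina* at 88.2 and 85.2, then 77.6 and 88.5.

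In the nerve at 3 D after microbeads, both pools lay below both naive pools for *Ina* in UON and *Nefh* in MON. At 6 W this held for *Nefh* in UON and *Nefm* in MON. The other members overlapped naive at 3 D and 6 W. At 2 W both pools lay below both naive pools for every member in MON and for *Nefl*, *Nefh* and *Ina* in UON, with no call. In UON *Nefl* was at 95.1 and 251 CPM at 3 D, 73.3 and 36.05 at 2 W and 100.3 and 263 at 6 W, so that the 2 W pools lay below both naive pools and the other times overlapped them. *Nefh* in UON was at 55.1 and 159, then 85.4 and 117, then 57.3 and 117 CPM. Its means were below naive at each time, and both pools lay below both naive pools at 2 W and 6 W. *Nefm* in UON was at 14.6 and 29.0, then 12.2 and 7.29, then 12.9 and 23.9 CPM, *Ina* at 7.13 and 10.18, then 7.71 and 10.7, then 8.95 and 23.7, and *Prph* at 2.79 and 5.25, then 3.46 and 4.60, then 1.74 and 2.31. *Ina* lay below both naive pools at 3 D and 2 W, and *Nefm* and *Prph* overlapped naive at all 3 times. Log2 fold changes in UON ran from −1.06 to 0.85 over the 15 tests.

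*Nefh* per 100 FPKM of *Nefl* in UON was 49.1 to 53.5 at 3 D, 98.7 to 276 at 2 W and 37.6 to 48.4 at 6 W, against 94.5 to 119.8 in naive UON. The ratio was below naive in both pools at 3 D and 6 W and overlapped it at 2 W, a description with no test.

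In MON, *Nefl* was at 77.6 and 150.1 CPM at 3 D, 36.03 and 52.1 at 2 W and 60.05 and 97.02 at 6 W after microbeads. *Nefh* was at 14.9 and 8.04, then 3.14 and 12.03, then 20.3 and 26.1 CPM, and *Ina* at 14.5 and 34.6, then 8.02 and 14.5, then 19.1 and 26.1. For these 3 the 2 W pools lay below both naive pools, with 4 of 5 members at an unadjusted p below 0.05 and the lowest adjusted p at 0.432. *Nefm* in MON was at 5.32 and 7.602, then 2.53 and 2.87, then 4.45 and 4.75 CPM, below both naive pools at 2 W and 6 W. *Prph* was at 0.6095 and 1.95, then 1.18 and 1.27, then 1.15 and 1.91 CPM, below both naive pools at 2 W and overlapping them at the other times. Log2 fold changes in MON ran from −1.44 to 0.17.

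Crush and microbeads were compared directly at matched times, in 1 fit of the 12 libraries of each tissue. At 3 D, 0 of 5 members were called by edgeR in any tissue, with 1 test of the 15 (*Ina* in MON) at an unadjusted p below 0.05 and also called by DESeq2 (1.33% of the genes it fitted), and 0.0081%, 0% and 0.0162% of all genes called in retina, UON and MON. At 2 W, *Nefl* was lower after crush by a log2 fold change of −2.63 (SE 0.21, adjusted p = 0.000846, edgeR) and *Nefm* of −2.60 (SE 0.17, adjusted p = 0.000185) in retina, 2 of 5 where 0.113% of all genes were called, and the *Nefl* call was lost in the fit of all 36 libraries (adjusted p = 0.283). *Nefh* was lower in UON (−8.06, SE 1.02, adjusted p = 0.0302), 1 of 5 against 0.0418% of all genes, and this held in 12 of 12 fits that left out a library. *Nefl* was lower in MON (−7.26, SE 0.80, adjusted p = 0.0155), 1 of 5 against 0.0485%, and this call was lost without either 2 W crush pool (adjusted p up to 0.0554). The *Ina* values at 2 W were −0.94, −3.45 and −3.26 in retina, UON and MON (adjusted p = 0.0634, 0.116 and 0.0652, edgeR), and those of *Prph* were −1.38, −0.32 and −2.20 (adjusted p = 0.566, 0.894 and 0.803). At 2 W DESeq2 called *Nefl*, *Nefm* and *Nefh* in retina, and these with *Ina* in UON and MON. It called 0.426%, 1.28% and 0.857% of the genes it fitted there. Its *Nefh* values were −2.17 in retina and −5.68 in MON (adjusted p = 5.08e-08 and 8.78e-09). Its *Nefl* value in UON was −3.21 (adjusted p = 0.000111).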

How the data were processed

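The authors aligned paired-end reads to GRCm38 with HISAT2 2.2.1, assembled transcripts with StringTie 1.3.0 and deposited estimated counts per gene and transcript. The gene counts were tested as deposited. FPKM and coverage per gene are the StringTie values the authors deposited, used for levels between genes and for the length behind a count. Genes passing edgeR's filter (minimum count 10, minimum total 15) were tested with edgeR 4.0.16 (R 4.3.3, TMM, quasi-likelihood F test) with terms for group and sex, per tissue and model, for naive tissues, per tissue, and for pairs of tissues. A call needed a Benjamini-Hochberg adjusted p below 0.05 over all genes tested and a log2 fold change beyond 1, with DESeq2 1.42.0 as an alternative. The scripts were tested on simulated data. The 5 genes and the gene lists were chosen with earlier results of these data known. All 5 members were tested in every comparison. Of each list at most 3 called genes with the largest change are named, and of likeness the 3 nearest genes with counts above 0 in all libraries and a mean of 10 CPM. The labels give no replicate numbers. The 3 naive tissues came from the same mice, so sex pairs them, and in other fits sex is a covariate. A block for the pool (sex within treatment and time) was added for differences between tissues after seeing the data. The paper states that UON, MON and retina were taken from every animal, and the main test between tissues did not use this pairing.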

Additional observations from a re-analysis of the deposited data

Results flagged for a closer look

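The response to crush at 2 W differed between retina and MON for 3 members in an interaction test (edgeR). The log2 fold change was less negative in retina by 5.28 for *Nefl* (SE 0.65, adjusted p = 0.0125), by 4.52 for *Nefh* (SE 0.69, adjusted p = 0.0284) and by 3.01 for *Ina* (SE 0.36, adjusted p = 0.0108). The *Nefh* call was lost in 5 of 12 fits that left out a library (adjusted p up to 0.0825) and in the fit of all 36 libraries (0.102). All 3 were called with a block for the pool of mice.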

How the results depend on the processing

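Of 58 results, 58 kept direction and side of the threshold under RLE size factors, 57 without the sex term, 56 under total counts, 52 with no filter on low counts, 47 under DESeq2 and 42 in 1 fit of all 36 libraries. Total counts moved the median log2 fold change of all genes by −0.46 for naive MON against retina and −0.39 for naive UON against retina. Fewer than 3 libraries a group, pools of mice and counts near 0 at 2 W after crush in MON limit the precision, and the cause of the changes below was not tested.

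The number of members called moved as follows. The fit of all 36 libraries called 1 in place of 2 for naive UON against MON, 1 in place of 4 for retina after crush, 4 in place of 0 for UON after crush and 5 in place of 3 for MON after crush. It called 8 in place of 3 between times and 8 in place of 4 between crush and glaucoma. DESeq2 called 10 between times, 1 for retina after microbeads, 4 for UON and 6 for MON after crush, 12 between crush and glaucoma and 6 in place of 3 between tissues. It also called more of all genes. In UON at 2 W after crush the share was 1.37% of the genes it fitted, against 0.0281% by edgeR. With no filter the numbers were 8 between times, 2 for UON and 5 for MON after crush, 9 between crush and glaucoma and 5 between tissues. Without the sex term, which pairs the 3 naive tissues of the same mice and is a covariate elsewhere, 5 were called between times, and no other number moved by over 1.5 times. With a replicate block for the pool of mice, added after seeing the data, 4 in place of 3 were called between tissues. The share of all genes called is not given for the fit of all 36 libraries, no filter, no sex term or left-out libraries. A changed count of members under these settings is thus no result about the members.

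With 1 library left out, the number called ran from 1 to 2 for naive UON against MON, 4 to 5 for naive MON against retina, 3 to 5 for retina after crush, 1 to 2 for UON after crush, 1 to 6 for MON after crush, 3 to 6 between times, 3 to 6 between crush and glaucoma and 2 to 7 between tissues. It was 4 in each fit of naive UON against retina and 0 in each fit of glaucoma against naive. Uncalled log2 fold changes that changed sign ran from −0.0079 to 0.999 (*Nefl*) and −0.61 to 1.43 (*Prph*, also −0.11) for naive UON against MON. At 3 D after crush in UON they ran from −2.249 to 0.43 (*Nefh*), −0.70 to 0.63 (*Nefl*) and −1.16 to 0.41 (*Nefm*, also 0.081). They ran from −0.36 to 1.04 for *Nefm* at 3 D after crush in MON and from −0.60 to 0.086 (also 0.0047) for *Nefh* at 2 W after microbeads in retina. Over the 45 member tests of glaucoma against naive, 16 changed sign in a fit with 1 library left out and 2 under another setting, all with a log2 fold change of at most 0.58 in size.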
